A study of Mus musculus with 6 samples.

Results

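The hemidesmosome components Itga6, Itgb4, Itga3, Dst, Plec and Cd151 were examined in mouse cornea by RNA sequencing of bulk tissue. They were chosen by gene symbol, and all 6 were found among the 35673 genes of the count table. The Cationorm group held 3 libraries and the Control group 3 libraries, all from corneas of male C57BL/6J mice aged 6 to 8 weeks. Cationorm is a cationic oil-in-water emulsion used as an eye drop, and per the labels it was given at 5 µL per eye on each of 2 daily occasions for 14 days after a contact lens-related dry eye model had been induced with 0.1% benzalkonium chloride drops and lens wear for 6 h per day. All 6 libraries carry the same tags, CLDE for the condition and wild-type for the treatment, so the labels do not say whether the Control mice went through the model or what drops they received.

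Hemidesmosomes are the junctions that fix basal epithelial cells to the basement membrane. Their core is the integrin α6β4, which binds laminin outside the cell and the plakins plectin and dystonin inside it, and the plakins bind the keratin filaments of the basal layer. In the cornea these junctions hold the epithelium to the stroma, and they are taken apart and rebuilt when the epithelium migrates over a wound.

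Libraries held between 32486043 counts in Cationorm 1 and 39193311 counts in Control 1. The lowest count of any member in any library was 4637 (Cd151 in Cationorm 1), where counting error alone has a coefficient of variation of 1.47%, and even numbers were in excess among low counts, so 1 fragment may have added more than 1 count. The tissue label was checked against 13 corneal epithelial markers, all of them detected in every library, whose summed level was 58553 to 63337 CPM (counts scaled to library size by TMM) in Cationorm and 56802 to 61815 CPM in Control. Markers of neighbouring tissues were present as well. The summed level of 6 iris and pigment cell markers was 1144 to 1444 CPM in Cationorm and 409 to 1028 CPM in Control, and that of 5 smooth muscle markers was 207 to 270 CPM in Cationorm and 80.5 to 187 CPM in Control. For 7 Schwann cell markers, from a cell type known to use α6β4 as well, it was 223.1 to 243 CPM in Cationorm and 197 to 222.8 CPM in Control. These 3 sums did not overlap between groups, and in each of them Control 3 was the highest Control library. The sums of 7 vascular markers (98.2 to 110 CPM in Cationorm and 63.5 to 112 CPM in Control), 8 skeletal muscle markers (76.3 to 2103 CPM and 105 to 1128 CPM in the same order), 7 lens markers (1569 to 5532 CPM and 71.3 to 2830 CPM), 8 retina markers (1818 to 5804 CPM and 4707 to 7025 CPM), 6 keratocyte markers (1643 to 2672 CPM and 2027 to 2126 CPM), 3 corneal endothelium markers (398 to 477 CPM and 359 to 448 CPM) and 6 immune cell markers (40.0 to 49.1 CPM and 31.8 to 43.7 CPM) overlapped. Overlap of a sum did not mean that its markers were balanced. All 8 retina markers had log2 fold changes (Cationorm over Control) below 0, with a median of -0.86. By edgeR, 3 of them had an unadjusted p under 0.05. Of the 6 keratocyte markers 5 were below 0 (2 at that p) and 1 above (also at that p), median -0.19. The 7 tested markers each of lens, skeletal muscle and vessels were all above 0, with medians of 0.99, 0.78 and 0.42. None passed after adjustment. Of these defining markers Tnnc2 of skeletal muscle and Cd3e of T cells were at 0 in at least 1 library. The part of these tissues in the results below was not tested. In bulk samples, fewer cells of a type and less RNA per cell cannot be told apart.

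The comparison of Cationorm with Control asked whether transcripts of the hemidesmosome differed in corneas given the emulsion. The integrin genes Itgb4, Itga6 and Itga3 and the plakin genes Plec and Dst averaged 9.58% to 16.2% more in Cationorm by fitted fold change, while the tetraspanin gene Cd151 averaged 4.22% less. None passed the test over all genes: edgeR's quasi-likelihood test called 0 of 6 members, and DESeq2 and limma-voom also called 0. Of all 18804 genes tested, edgeR called 0%, limma-voom 0% and DESeq2 0.271% (51 genes, 46 of them higher in Cationorm). At an unadjusted p under 0.05, 2 of 6 members were higher in Cationorm (Itgb4 and Itga3), where 5.16% of all genes tested and 10.1% of the 1184 genes at least as abundant as Cd151 were higher by that rule. The median log2 fold change of the 6 members was 0.16, against 0.0055 for all genes tested and 0.044 for the 1184 genes at least as abundant as Cd151, of which 65.1% were above 0.

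**Figure D1:**
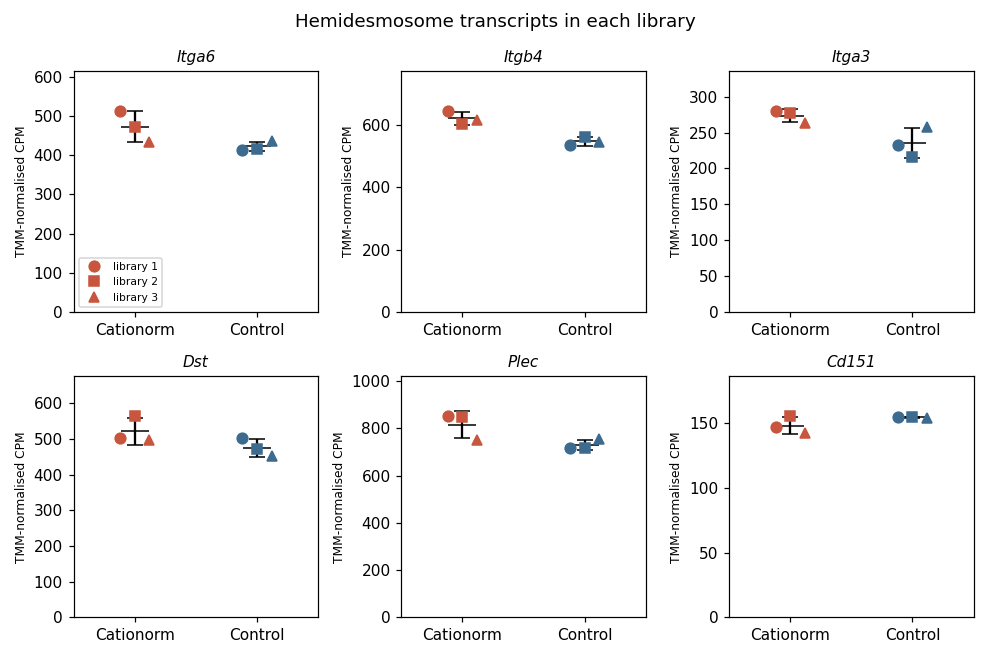
TMM-normalised CPM of each hemidesmosome transcript in the 3 Cationorm and the 3 Control libraries, with axes from 0; points are libraries, horizontal lines means and bars SD. The groups do not overlap for Itgb4 and Itga3, and the 3 Control values of Cd151 lie between 154 and 155 CPM.

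Itgb4 encodes the β4 chain, which pairs only with α6 and carries the long cytoplasmic tail that binds plectin. It was at 645, 604 and 616 CPM in Cationorm 1 to 3 and at 534, 562 and 545 CPM in Control 1 to 3. Every Cationorm library was above every Control library. The means were 621 ± 21.0 CPM in Cationorm and 547 ± 13.9 CPM in Control (SD, n = 3 each), a log2 fold change of 0.18 ± 0.056 (SE) with a 95% interval of 0.051 to 0.32, and an adjusted p of 0.550 by edgeR. By p it ranked 328 of 18804 genes.

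Itga6 encodes the α6 chain, which pairs with β4 in hemidesmosomes and with β1 elsewhere. Its level was 512, 470 and 434 CPM in Cationorm 1 to 3 and 414, 416 and 436 CPM in Control 1 to 3. Cationorm 3 lay within the Control range, below Control 3, so the groups overlapped. The log2 fold change was 0.16 ± 0.074 (SE; 95% interval -0.012 to 0.34; edgeR adjusted p = 0.550), and it ranked 2153 by p. Without Cationorm 1 it was 0.100.

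Itga3 encodes the α3 chain, whose α3β1 dimer is a laminin receptor at the base and sides of basal cells rather than a core part of the hemidesmosome. It was at 280, 278 and 264 CPM in Cationorm 1 to 3 and at 233, 217 and 258 CPM in Control 1 to 3. The groups did not overlap, though Control 3 and Cationorm 3 lay close together. Its log2 fold change, 0.22 ± 0.077 (SE; 95% interval 0.035 to 0.40), was the highest of the 6 members and did not pass the test (edgeR adjusted p = 0.550, rank 732 by p). Without Control 2 it was 0.14.

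Groups without overlap, higher in Cationorm, were thus seen for 2 of 6 members, where 8.73% of all genes tested and 15.7% of the 1184 genes at least as abundant as Cd151 met the same rule. The count of such members depended on single libraries and on scaling. It was 5 of 6 without Cationorm 3 (background 18.1%), 4 without Control 3 (background 19.9%), 4 with DESeq2 size factors (8.73%) or upper-quartile factors (8.63%), and 0 when libraries were scaled to the corneal epithelial markers instead of by TMM (background 4.02%). The count at an unadjusted p under 0.05 was 4 without Cationorm 3 (background 5.84%), 2 without Control 3 (9.36%), 1 without Cationorm 2 (2.43%) or Control 2 (2.68%), and 0 without Cationorm 1 or Control 1 (2.26% for each) or with the epithelial scaling (2.33%). It was 4 with DESeq2 (background 5.04%) and 4 with limma-voom sample weights (8.37%). Each background of these alternative fits is a share of all genes tested. It was not counted there among the genes at least as abundant as Cd151. The integrin and plakin genes stayed above 0 and Cd151 below 0 in each of 15 alternative fits. Those fits reuse the same libraries, and the share of all genes that kept their sign was not counted. The smallest adjusted p of any member over those fits was 0.165. That value came without Cationorm 3, where 1.83% of genes and 0 of 6 members were called. Of the 350 genes called there, 15 were higher in Cationorm and the rest lower.

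Plec encodes plectin, the plakin that ties β4 to keratin and also serves muscle and other tissues. It was the most abundant member, at 851, 846 and 750 CPM in Cationorm 1 to 3 and 718, 716 and 755 CPM in Control 1 to 3. Cationorm 3 lay just under Control 3, as it did for Itga6. The log2 fold change was 0.16 ± 0.069 (SE; 95% interval -0.0018 to 0.32; edgeR adjusted p = 0.550, rank 1714 by p). In the GRCm38 annotation 205 nt of its exons are shared with the neighbouring gene Parp10, which had at most 1424 counts in a library, against at least 24818 for Plec.

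Dst encodes dystonin. Its epithelial form, the bullous pemphigoid antigen, is the other hemidesmosome plakin, while longer forms act in neurons and muscle. It was at 503, 563 and 495 CPM in Cationorm 1 to 3 and 502, 471 and 452 CPM in Control 1 to 3. Cationorm 2 was the highest library, and Cationorm 1 and Control 1 were nearly equal. The log2 fold change was 0.13 ± 0.074 (SE; 95% interval -0.043 to 0.31; edgeR adjusted p = 0.567, rank 3900 by p), and it was 0.056 without Cationorm 2.

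The count table has 1 row for Dst, so its forms cannot be told apart. The RefSeq promoter table (GRCm38.p6) lists 2 starts for it, far apart on chromosome 1. Near the first listed start, GENCODE M21 has 3 coding transcripts of 17212 to 23279 nt, and near the internal start 3 of 8788 to 16340 nt. It also has a coding transcript of 23201 nt that starts upstream of both. The 250 bases before each start are shown because they differ in kind, with GC contents of 68.8% and 45.2%. The same window is shown for the first listed start of Itga3, the member with the highest log2 fold change, and of Cd151, the member below 0. Capitals mark every match on either strand to TGANTCA (AP-1), GGGCGG (GC box), CCAAT or TATAAA. Each is written in the direction of its gene.
Dst, first start, chr1:34011345-34011594, plus strand: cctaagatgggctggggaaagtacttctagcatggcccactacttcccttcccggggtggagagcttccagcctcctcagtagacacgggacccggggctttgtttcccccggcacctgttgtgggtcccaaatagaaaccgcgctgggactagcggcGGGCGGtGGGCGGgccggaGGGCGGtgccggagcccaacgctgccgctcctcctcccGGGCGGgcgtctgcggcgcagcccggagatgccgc
Dst, internal start, chr1:34160010-34160259, plus strand: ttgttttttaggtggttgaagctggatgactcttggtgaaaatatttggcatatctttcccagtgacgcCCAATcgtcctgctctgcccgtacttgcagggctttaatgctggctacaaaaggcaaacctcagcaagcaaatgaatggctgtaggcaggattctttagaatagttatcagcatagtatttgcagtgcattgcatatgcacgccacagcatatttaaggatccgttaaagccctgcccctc
Itga3, chr11:95076715-95076964, minus strand: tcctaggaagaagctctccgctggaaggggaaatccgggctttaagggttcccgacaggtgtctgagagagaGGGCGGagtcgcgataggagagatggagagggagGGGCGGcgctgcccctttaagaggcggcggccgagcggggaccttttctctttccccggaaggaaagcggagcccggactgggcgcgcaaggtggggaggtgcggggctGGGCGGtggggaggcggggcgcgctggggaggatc
Cd151, chr7:141467112-141467361, plus strand: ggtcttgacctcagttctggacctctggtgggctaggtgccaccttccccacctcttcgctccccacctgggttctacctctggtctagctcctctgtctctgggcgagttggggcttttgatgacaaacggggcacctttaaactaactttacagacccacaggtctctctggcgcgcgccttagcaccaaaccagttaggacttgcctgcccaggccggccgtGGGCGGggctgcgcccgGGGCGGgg

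The GC box was found 4 times before the first Dst start, 0 times before the internal one, 3 times before Itga3 and 2 times before Cd151, and 32.7% of 32851 promoter windows of this length held it. A CCAAT match stood only before the internal Dst start among these 4 windows, with 33.9% of all windows holding such a match. Itga3 and Cd151 also have a further listed start each, not shown. That of Itga3 held a GC box and a CCAAT match, and that of Cd151 held none of the motifs. TGANTCA (6.75% of all windows) and TATAAA (12.4%) were not found in the 4 windows shown, which says only that these letters are not in these windows. Of the 6 members, 3 had an entry in the promoter table (Dst, Itga3 and Cd151).

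Cd151 encodes the tetraspanin that binds the laminin-binding integrins α3β1 and α6β4 in the membrane. It was at 147, 155 and 142 CPM in Cationorm 1 to 3 and at 155, 155 and 154 CPM in Control 1 to 3. Cationorm 1 and 3 were below the Control libraries and Cationorm 2 was above them. The means were 148 ± 6.70 CPM in Cationorm and 155 ± 0.373 CPM in Control (SD, n = 3 each), with a log2 fold change of -0.062 ± 0.059 (SE; 95% interval -0.20 to 0.076; edgeR adjusted p = 0.706, rank 8651 by p). It was -0.11 without Cationorm 2 and -0.033 without Cationorm 3.

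Levels of different genes were compared per length, as CPM per kb of the longest coding transcript in GENCODE M21. On that scale the order in Cationorm was Itga6 (110 ± 9.10 CPM per kb), Itgb4 (100 ± 3.39), Cd151 (79.5 ± 3.59), Itga3 (56.3 ± 1.82), Plec (52.8 ± 3.69) and Dst (22.4 ± 1.59), and in Control it was the same, with 97.9 ± 2.79, 88.1 ± 2.23, 83.0 ± 0.200, 48.5 ± 4.26, 47.2 ± 1.40 and 20.4 ± 1.08 CPM per kb (SD, n = 3 each). Itga3 and Plec, neighbours in that order, did not differ by more than their spread in either group. The order rests on the transcripts taken. With its form of 8961 nt from the internal start Dst would stand at 58.1 CPM per kb in Cationorm and 53.0 CPM per kb in Control. Cd151 has shorter coding transcripts than the form of 1865 nt used, such as a form of 1619 nt, with which it would stand higher. Its place next to Itgb4 is therefore not fixed.

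Ratios of counts within a library need no scaling, and those that separated the groups all had Cd151 in them. The ratio of Itga3 to Cd151 was 1.90, 1.79 and 1.86 in Cationorm 1 to 3 and 1.50, 1.40 and 1.67 in Control 1 to 3. The ratio of Itgb4 to Cd151 was 4.38, 3.89 and 4.34 in Cationorm 1 to 3 and 3.44, 3.63 and 3.53 in Control 1 to 3. All 5 ratios with Cd151 as the denominator separated the groups, with each Cationorm value above all 3 Control values, by 0.19 to 0.28 in mean log2 ratio. Each had an exact two-sided permutation p of 0.1, the smallest that 3 against 3 libraries allow, and 0.3 after adjustment over the 15 pairs, so none can pass, and the 5 share their denominator. Among all other genes tested, 16.5% separated the groups in the same direction when divided by Cd151, and among the 1183 that are at least as abundant it was 39.2%, so a higher ratio to Cd151 was common among abundant genes. Of the 10 pairs without Cd151, 0 separated the groups.

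The ratio between the 2 chains of α6β4 did not separate the groups. Itgb4 counts were 1.32 ± 0.0869 times those of Itga6 in Cationorm and 1.30 ± 0.0492 times in Control (SD, n = 3 each; difference in mean log2 ratio 0.024, exact two-sided permutation p = 0.8), and the difference was -0.029 without Cationorm 3. The steadiest ratio was that of Itga6 to Plec, at 0.602, 0.556 and 0.579 in Cationorm 1 to 3 and 0.576, 0.582 and 0.577 in Control 1 to 3, a range of 0.11 on the log2 scale over the 6 libraries, against 0.18 to 0.44 for the other 14 pairs.

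**Figure D2:**
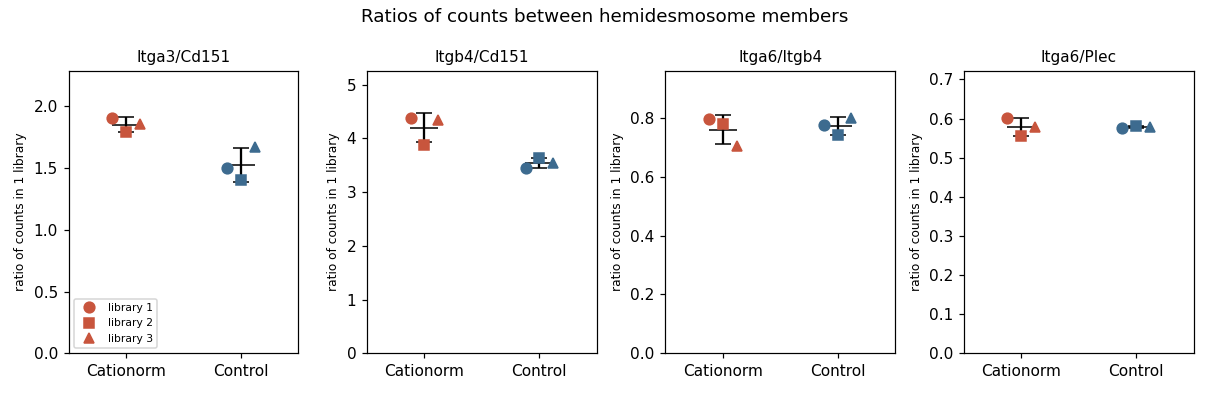
Ratio of counts between members within each library, Cationorm left and Control right, with axes from 0; points are libraries, horizontal lines means and bars SD. The ratios of Itga3 and Itgb4 to Cd151 do not overlap between groups, while Itga6 to Itgb4 and Itga6 to Plec do.

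Likeness of pattern was measured as the root mean square difference of log2 CPM over the 6 libraries, each gene centred on its own mean, among 7804 other genes with at least 20 CPM. Plec stood at rank 20 for Itga6 (0.033 log2 units) and Itga6 at rank 40 for Plec. Itgb4 was nearer to Itga6 (rank 316, 0.064) than to Plec (rank 494, 0.070). From Cd151 the other members stood at ranks 3747 (Dst) to 6034 (Itga3), but from Dst, Cd151 (rank 2334, 0.109) was about as near as Itga6 (rank 2350, 0.109) and nearer than Itga3 (rank 3255, 0.122). The genes nearest to each member were Lbr, Washc5 and Elovl5 for Itga6, Ubap2, Pcgf3 and Kars for Itgb4, Srebf2, Erbb3 and Tnrc18 for Itga3, Rab15, Rit1 and Ripk4 for Dst, Ski, Ipo5 and Asph for Plec, and Minpp1, Tmem59 and Taf4 for Cd151, all within 0.031 log2 units. With 6 libraries and many genes, some profiles lie close by number alone.

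The members were also set against the tissue that holds them, as counts per 100 counts of the basal keratins Krt5, Krt14 and Krt15, the filaments that plectin and dystonin bind. Itgb4 was at 2.58 ± 0.165 in Cationorm and 2.23 ± 0.171 in Control, and Itga3 at 1.13 ± 0.0309 in Cationorm and 0.968 ± 0.170 in Control (SD, n = 3 each). With this denominator the groups overlapped for 5 of 6 members, and Control 3 lay within or above the Cationorm range for Itga6, Itgb4, Itga3, Plec and Cd151, with 1.15 for Itga3 against 1.10 in Cationorm 2. Dst was the exception, at 2.05, 2.23 and 2.18 in Cationorm 1 to 3 and 2.04, 1.76 and 2.01 in Control 1 to 3. Its lowest Cationorm value and its highest Control value, both in library 1, nearly met. Per 100 counts of the 13 corneal epithelial markers the groups overlapped for 5 of 6 members, Dst among them (0.820 in Cationorm 1 against 0.832 in Control 1). There Cd151 was lower without overlap, at 0.240, 0.245 and 0.243 in Cationorm 1 to 3 and 0.257, 0.250 and 0.272 in Control 1 to 3. With scaling to the epithelial markers 4.02% of all genes were higher without overlap. The share was not counted on the lower side or for the basal keratins. Neither separation can therefore be read as particular to its gene.

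Transcript length moved with the result. Among the 1148 genes at least as abundant as Cd151 that had a transcript length, the median log2 fold change was -0.015 for the 150 genes whose longest coding transcript has up to 1500 nt, 0.024 from 1501 to 3000 nt, 0.067 from 3001 to 5000 nt, 0.070 from 5001 to 8000 nt and 0.10 for the 61 genes over 8000 nt, of which 90.2% were above 0. Cd151 is the shortest member at 1865 nt, and the others have 4310 nt (Itga6) to 23279 nt (Dst). Less the median of its length class, the log2 fold change was 0.15 for Itga3, 0.11 for Itgb4, 0.095 for Itga6, 0.058 for Plec, 0.029 for Dst and -0.086 for Cd151, with a median of 0.076. Groups without overlap, higher in Cationorm, were seen for 20.9% of the genes from 3001 to 5000 nt, the class of Itga3. They were seen for 15.4% of those from 5001 to 8000 nt, the class of Itgb4. The part of transcript length in the result was not tested.

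**Figure D3:**
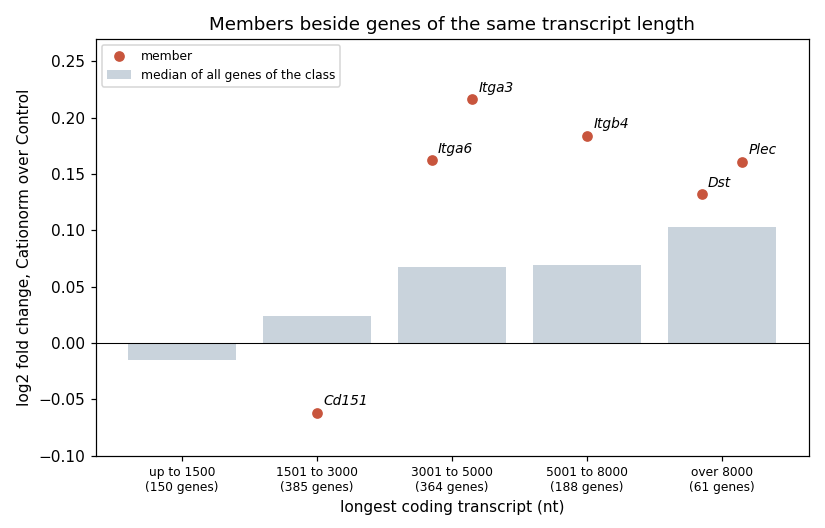
Log2 fold change, Cationorm over Control, of each member (points) and the median of all genes at least as abundant as Cd151 (bars) by class of longest coding transcript in nt. The class medians lie between -0.015 and 0.10, the 5 longer members lie above their bars and Cd151 lies below its bar.

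Genes linked to the hemidesmosome were grouped in 7 lists of 58 genes, of which 57 were tested and 0 passed (edgeR and DESeq2, adjusted over all genes). Beside the counts of each list, 51.2% of all genes tested and 65.1% of the 1184 genes at least as abundant as Cd151 were above 0. At an unadjusted p under 0.05 by edgeR, 5.16% and 10.1% in the same order were higher. The lists were not compared within classes of transcript length, in which 45.3% to 90.2% of abundant genes were above 0. The extracellular partners, the laminin chains Lama3 and Lamb3, the transmembrane collagen Col17a1 and the anchoring fibril collagen Col7a1, had 4 of 4 log2 fold changes above 0, with a median of 0.088 (0.024 without Cationorm 2, 0.047 without Control 2 and 0.16 without Cationorm 3), and 0 of 4 had an unadjusted p under 0.05. Lama3 was at 182, 188 and 171 CPM in Cationorm 1 to 3 and 162, 150 and 171 CPM in Control 1 to 3, and Cationorm 3 lay just under Control 3. Lama3 had a log2 fold change of 0.16 ± 0.072 (SE; edgeR adjusted p = 0.550) and Lamb3 0.097 ± 0.073. Col17a1, which spans the membrane beside α6β4, was at 2986 ± 301 CPM in Cationorm and 2827 ± 222 CPM in Control (SD, n = 3 each), a log2 fold change of 0.079 ± 0.095, and its fitted value was -0.0013 without Control 2.

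Of the 3 basal keratins, 1 was above 0, with a median of -0.030 (0.091 without Control 2). Krt5 was at 19562 ± 1186 CPM in Cationorm and 19978 ± 1370 CPM in Control (SD, n = 3 each). Krt14 varied most, with 1105, 696 and 1169 CPM in Cationorm 1 to 3 and 746, 1790 and 673 CPM in Control 1 to 3, a log2 fold change of -0.11 ± 0.39 that was 0.46 without Control 2. Krt15 had a log2 fold change of 0.032 ± 0.11, which was below 0 in 5 of 15 alternative fits.

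All 5 other plakins had log2 fold changes above 0 (median 0.21), and 3 of them had an unadjusted p under 0.05. Of the 1184 genes at least as abundant as Cd151, 65.1% were above 0 and 10.1% were higher at that p. The transcript length of these plakins was not taken into account. Dsp, the desmosomal plakin desmoplakin, was at 3391, 3320 and 3109 CPM in Cationorm 1 to 3 and 2792, 2768 and 2928 CPM in Control 1 to 3 (log2 fold change 0.21 ± 0.060 SE, edgeR adjusted p = 0.550). Ppl, the plakin periplakin of desmosomes and the cornified envelope, was at 2010, 1979 and 1843 CPM in Cationorm 1 to 3 and 1649, 1566 and 1738 CPM in Control 1 to 3 (log2 fold change 0.24 ± 0.066 SE, edgeR adjusted p = 0.550). The groups did not overlap for either gene, and in both Control 3 was the highest Control library and Cationorm 3 the lowest Cationorm library. That order of the libraries also held for Itga6, Plec and Itga3.

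Of 16 other integrin chains, 13 were above 0 with a median of 0.15 (0.29 without Control 3 and 0.098 without Control 2), 0 had an unadjusted p under 0.05 on the higher side and 1 on the lower side. Itgb1, the partner of α3, was at 213, 192 and 175 CPM in Cationorm 1 to 3 and 163, 172 and 186 CPM in Control 1 to 3, with overlap (log2 fold change 0.15 ± 0.090 SE, edgeR adjusted p = 0.574). Itgb5, a vitronectin receptor chain, had 0.15 ± 0.070, Itga9 0.52 ± 0.23 and Itgav, the common vitronectin receptor α chain, -0.065 ± 0.085. Among 8 other tetraspanins 7 were above 0, with a median of 0.053 that was -0.0038 without Cationorm 2. Cd63, a tetraspanin of late endosomes and exosomes, had 0.35 ± 0.12 (edgeR adjusted p = 0.550), and Cd82 had 0.13 ± 0.077. Cd151 was thus below 0 while 7 of 8 tetraspanins were above 0, and the difference between them was not tested.

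Of 12 focal adhesion genes 11 were tested, 9 were above 0 with a median of 0.21, and 3 had an unadjusted p under 0.05. Tln1, encoding talin, which activates β1 integrins, was at 163, 156 and 146 CPM in Cationorm 1 to 3 and 125, 121 and 143 CPM in Control 1 to 3, without overlap (log2 fold change 0.26 ± 0.083 SE, edgeR adjusted p = 0.550). The adaptor Parva had 0.23 ± 0.086, the adaptor Lims1 -0.068 ± 0.085 and the kinase Src -0.014 ± 0.060. The median of this list was 0.12 without Control 2. Of 10 genes of hemidesmosome assembly and turnover 5 were above 0 and 5 below, with a median of 0.0077 (-0.017 without Control 3). Mmp14, a membrane protease that cleaves laminin, had 0.24 ± 0.087 (edgeR adjusted p = 0.550). The shedding proteases Adam17 and Adam9 had 0.082 ± 0.057 and -0.12 ± 0.065, and the kinase Prkca, which phosphorylates β4 in human keratinocytes, had -0.21 ± 0.17.

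**Figure D4:**
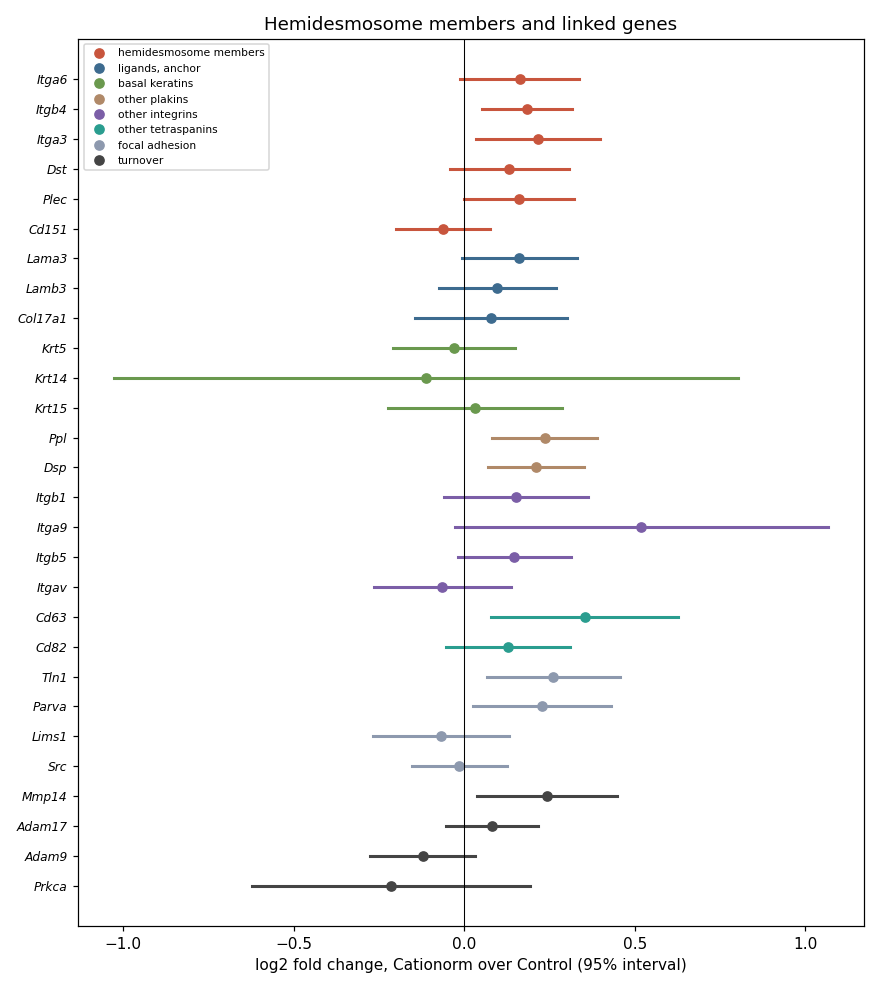
Log2 fold change, Cationorm over Control, with its 95% interval for the 6 members and the 22 named genes of the linked lists, by list in colour. The intervals of Itgb4, Itga3, Ppl, Dsp, Cd63, Tln1, Parva and Mmp14 lie above 0, none of them adjusted over genes, and the interval of Cd151 spans 0.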

How the data were processed

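The authors deposited raw whole-number read counts for each gene symbol, 1 column per library. Per the submitters' processing notes, DESeq2 and the builds GRCm39 and mm39 were used in roles not stated. No source used here gives the aligner, the counter or the strand setting, so overlapping genes cannot be told apart. Columns were matched to samples by title. The labels give 1 batch and do not say that replicates were separate animals, so the spread behind each p-value may be technical.

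After TMM scaling, filterByExpr left 18804 of 35673 genes. The test was edgeR 4.0.16's quasi-likelihood test in R 4.3.3, group as the only term, with Benjamini-Hochberg adjustment over all tested genes and a threshold of 0.05. SE and 95% intervals came from the fitted F statistic. Alternatives used DESeq2 1.42.0, limma 3.58.1, other scaling and filters, the replicate number as a block, and each library left out in turn. The procedure was tested on simulated data. Changes a little larger than those fitted for the members were not called there, and many still larger ones were missed. A gene that was not called may therefore still differ. Lists, members and the naming rule were chosen with earlier results of these data known. Named genes of a linked list were the 2 of smallest p on either side of 0 with at least 5 CPM, plus 6 fixed genes, and 1 gene is not reported here. Transcript lengths came from GENCODE M21 (GRCm38) and promoter sequences from RefSeq (GRCm38.p6), an older build than that of the notes, so no other coordinates are given. Replicates differed by more than sampling noise, with chi-square of 30.5 or more per degree of freedom.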

Additional observations from a re-analysis of the deposited data

How the results depend on the processing

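Of the 28 named genes, 23 kept their sign in all 15 alternative fits, the 6 members among them. These fits reuse the same libraries and are not independent of each other. Members higher in Cationorm without overlap, 2 as reported, were 4 with DESeq2 size factors, 4 with upper-quartile factors and 0 with scaling to the epithelial markers, and 2 to 5 with 1 library left out (11.3% to 19.9% of all genes). Members higher at an unadjusted p under 0.05, 2 as reported, were 4 with DESeq2 (5.04% of all genes), 4 with limma-voom sample weights (8.37%), 0 with the epithelial scaling (2.33%) and 0 to 4 with 1 library left out (2.26% to 9.36%). Genes called over the whole table were 51 with DESeq2 and 0 to 350 with 1 library left out (350 without Cationorm 3, 8 without Control 3 and 1 without Control 2), with 0 members among them in any fit. Of the 350, 15 were higher in Cationorm, against 46 of the 51 with DESeq2, 8 of the 8 without Control 3 and the 1 without Control 2. The median of the members was 0.076 less the median of their length class, an alternative chosen after seeing the data, and 0.13 to 0.20 with 1 library left out. Signs turned for Krt15 (-0.0037 with the epithelial scaling, -0.042 to 0.13 with 1 library left out), Krt14 (0.0011 with limma-voom, 0.069 with sample weights, 0.025 with the replicate block, -0.36 to 0.46), Krt5 (-0.092 to 0.011), Src (-0.068 to 0.014) and Col17a1 (-0.0013 to 0.16). The cause was not tested. Samples share only a replicate number. Deviations of same-numbered libraries correlated at -0.21, -0.42 and -0.18, and those of differently numbered libraries at -0.26 to 0.49. Deviations were taken from each group's mean, so these correlations are not independent. With the replicate block 0 genes were called, 0 members had an unadjusted p under 0.05 and the members' median was 0.16. Counting error at the lowest count of a member had a coefficient of variation of 1.47%, if each fragment added 1 count. The sources of the spread between libraries were not tested.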

Other observations

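In the linked lists 3 further genes are given, chosen after their values were seen. Itga4, an integrin chain of leukocytes, averaged 3.27 CPM in Cationorm and 5.42 CPM in Control (n = 3 each), without overlap, a log2 fold change of -0.73 ± 0.24 (SE; edgeR adjusted p = 0.550). Fermt1, the epithelial kindlin, whose loss in humans causes skin fragility, was at 91.7 ± 0.509 CPM in Cationorm and 79.5 ± 9.50 CPM in Control (SD, n = 3 each), without overlap (log2 fold change 0.21 ± 0.092 SE, edgeR adjusted p = 0.550). Ilk, an integrin-bound adaptor found in most tissues, was at 0.0672 ± 0.0360 CPM in Cationorm and 0.0371 ± 0.0180 CPM in Control, at or under 3 counts in every library, and was not tested; how overlapping genes were counted is not given in the sources used here, so this level may not be that of its transcript.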
